A study of Mus musculus with 2 samples.

Results

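Gamma delta (γδ) intraepithelial T cells were examined among single cells of the small intestinal epithelium. They were selected by measured UMIs (unique molecular identifiers, 1 per captured transcript molecule): a barcode needed more than 500 detected genes, less than 25% mitochondrial UMIs, at least 2 UMIs over Cd3d, Cd3e and Cd3g (subunits of the T cell receptor complex), at least 1 UMI of Trdc (the constant region of the receptor δ chain) and fewer than 3 of 8 cell cycle genes. This rule found 187 γδ cells for the genotype adip fl/fl and 216 for adip fl/fl-Villi-Cre, together 403 of the 8624 cells that passed the first pair of filters and of 21629 barcodes in all. Because Trdc and the Cd3 genes chose the cells, their levels are given as a description only.

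Both genotypes carry floxed alleles of the adiponectin gene, and the Villi-Cre mice also carry Cre under the villin promoter, which is active in epithelial cells and not in T cells. The γδ cells of both groups therefore come from T cells that are not themselves a target of Cre. The mice were 8-week-old males, cells of several mice were pooled, and each genotype gave 1 droplet library of the 10x Genomics 3′ type from crypt-enriched epithelium that was dissociated without a sort. Genotype and library cannot be told apart, no test between genotypes was possible, and every interval below covers counting error only. Adipoq (ENSMUSG00000022878), the deleted gene, had 0 UMIs in the γδ cells of both libraries. The exact upper limits were 3.69 CPM (UMIs in 1000000 of the summed cells) in adip fl/fl and 2.97 CPM in adip fl/fl-Villi-Cre, so it could not check the labels.

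Intraepithelial lymphocytes sit between the epithelial cells of the gut, and in the mouse small intestine many of them carry a γδ receptor, built from rearranged γ and δ chain genes, in place of the αβ receptor of conventional T cells. Most express CD8α without CD8β, are held in the epithelium by the integrin CD103 binding E-cadherin, and carry granzymes and receptors shared with natural killer (NK) cells. The Vγ7 segment of the γ chain is known from this compartment, where butyrophilin-like proteins of the enterocytes select and maintain cells that use it.

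The γδ cells held 1001038 UMIs in adip fl/fl and 1239983 in adip fl/fl-Villi-Cre, with medians of 5079 and 4562 UMIs and of 2078 and 1890.5 genes per cell. Single cells ranged from 1223 to 14175 UMIs in adip fl/fl and from 895 to 52994 in adip fl/fl-Villi-Cre, where the next deepest had 36517. Both libraries were thus of like depth in these cells, with a few far deeper barcodes in adip fl/fl-Villi-Cre. The libraries shared 31 barcode sequences in all, of which 1 was a γδ cell in each library and none was a γδ cell in both. Median mitochondrial shares were 2.59% and 2.35% in γδ cells against 18.0% and 17.6% in the epithelial barcodes, which were cells passing the filters with an Epcam UMI and none of Ptprc (CD45) or the Cd3 genes (2367 and 4648).

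A minority of cells lay at the edge of the rule. Trdc had 1 UMI in 19 of the 187 γδ cells of adip fl/fl and in 27 of the 216 of adip fl/fl-Villi-Cre, and 3 or more UMIs in 141 and 168. No member had only 2 Cd3 UMIs, and 1 barcode in each library had Trdc with a single Cd3 UMI. Of the 8 cell cycle genes, 2 were detected in 11 members of each library, while 9 and 10 further barcodes with 3 of them fell just outside.

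Markers of γδ intraepithelial cells that the rule did not use were frequent, but so were αβ chain transcripts. Trgc1 (γ chain constant region 1) was found in 82.4% and 85.6% of the γδ cells, and Itgae (CD103) in 94.1% and 91.2%. Cd8a was found in 84.0% and 89.4% of them, against Cd8b1 in 1 and 4 cells and Cd4 in 1 and 0. Of the markers of this type outside the rule, Gzma, Cd160 and Xcl1 were 1726-fold, 822-fold and 2407-fold above the epithelial barcodes in adip fl/fl and 1690.4-fold, 606-fold and 2524-fold in adip fl/fl-Villi-Cre. Gzma and Cd160 were at similar levels in αβ T cells, as given below, so they do not tell γδ from αβ cells. Constant regions of the αβ receptor were not absent: 179 of 187 and 211 of 216 γδ cells had a UMI of Trac, Trbc1 or Trbc2, and 169 of 187 and 192 of 216 had at least 2 UMIs of 1 of these genes. The 3 genes summed to 2203 and 1545 CPM in γδ cells and to 2858 and 2400.2 CPM in the αβ T cells defined below. Without such barcodes γδ cells would be 0.587% and 0.432% of cells. How many of these UMIs are transcripts of unrearranged genes was not tested. Epithelial RNA was present in the γδ barcodes, with enterocyte markers at 5067 and 23070.5 CPM, goblet markers at 289 and 1729.9 CPM and an Epcam UMI in 58.3% and 68.1% of members. Lists of other immune cells were lower: the 8 B and plasma cell markers summed to 87.9 and 78.2 CPM, mostly Cd79b, with Cd79a and Mzb1 at 0 UMIs in both libraries. The 11 myeloid markers summed to 213 and 226 CPM, of which Cst3 was the most abundant, with Csf1r, Adgre1, C1qa and C1qb at 0. Foxp3, which marks regulatory T cells, also had no UMI.

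The receptor chain transcripts came mainly from the C1, C2 and C4 clusters of the γ locus on chromosome 13. Trdc, at chr14:54142851-54146108 (GRCm38.p6), had 1211 UMIs in adip fl/fl and 1329 in adip fl/fl-Villi-Cre, or 1209.7 and 1072 CPM. Trgc1, at chr13:19214103-19216618, had 877 CPM (95% interval 820 to 937) and 835 CPM (785 to 887). Its share of cells with a UMI stood out from that in the αβ T cells of the same libraries (163 and 235 cells with Cd3, at least 1 Trac, Trbc1 or Trbc2 UMI and no Trdc, Cd4 or cycling), of which 31.9% and 21.3% had one. Trgc2 was found in 74.3% and 74.1% of γδ cells and Trgc4 in 72.7% and 74.5%, but these were also found in 55.8% and 53.2% (Trgc2) and in 54.6% and 45.1% (Trgc4) of αβ cells. Trgc3 had 3 and 4 UMIs. Of the 50-base words of the Trgc1 transcript, 17.9% also occur in Trgc2 and 17.6% in Trgc3, and none in Trgc4, so reads within these shared stretches could not be assigned to 1 of the first 3 genes.

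Variable segments separated the classes less evenly. Trgv7, the segment known from intestinal γδ cells (chr13:19178042-19178492), was found in 60 of 187 γδ cells (32.1%) in adip fl/fl and in 67 of 216 in adip fl/fl-Villi-Cre, against 2.45% and 1.28% of αβ cells. In both libraries all cells with Trgv7 also had Trgc1, the constant gene of its own cluster, against 74.0% and 79.2% of the γδ cells without it. The cells with Trgv7 were deeper, at medians of 5733 and 5270 UMIs against 4868 and 4331, and the part of depth was not tested. Trgv2 was found in more γδ cells (62.6% and 60.2%), yet also in 44.8% and 42.6% of αβ cells. Trgv4 was found in 17.1% and 13.9% of γδ cells and Trgv1 in 8.56% and 7.41%. No Trgv UMI was found in 39 and 53 γδ cells, a single Trgv gene in 78 and 92 and more than 1 in 70 and 71, and a δ variable segment (Trdv) was found in only 15 and 23. Variable segments lie far from the captured 3′ end, so a missing UMI does not show that the segment was not used.

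**Figure D1:**
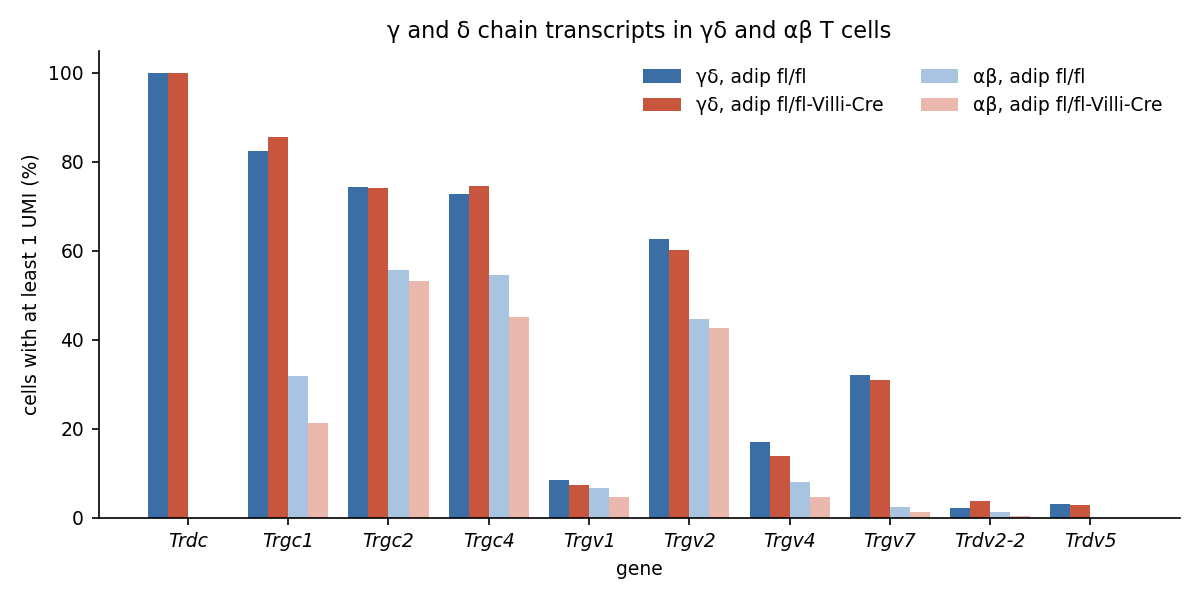
Share of γδ and αβ T cells with at least 1 UMI (y axis, %) for γ and δ chain genes (x axis), with 1 bar per cell class and library and no thinning of depth. Trdc is 100% in γδ and 0 in αβ cells by the rule, Trgc1 and Trgv7 stand higher in γδ cells, and Trgc2, Trgc4 and Trgv2 are common in both.

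Granzymes and a chemokine were abundant. The 16 cytotoxic effectors summed to 42088 and 35279 CPM. Gzma (granzyme A, a serine protease of cytotoxic granules) had 30946 CPM in adip fl/fl and 25532 in adip fl/fl-Villi-Cre. Ccl5, a chemokine that attracts T cells and other leukocytes, had 27039.9 and 23977 CPM, and Gzmb 6589 and 5636. After thinning to 1000 UMIs per cell, which left out 0 and 3 γδ cells and 7 and 20 epithelial barcodes, Gzma was found in 67.9% (60.7 to 74.5) and 70.9% (64.3 to 76.9) of γδ cells, and in 70.6% and 75.9% without thinning. Epithelial barcodes, whose median depth of 4665 and 4629 UMIs was near that of the γδ cells, had Gzma in 2.67% and 1.82% of cells after the same thinning. These barcodes were chosen for having no Ptprc or Cd3 UMI, so their share can lie below what lysed cells or doublets give. All thinned γδ shares named in this paragraph and the next lie above this Gzma share.

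Ccl5 was found in 89.3% and 89.2% of γδ cells after thinning and in 2.08% and 2.25% of epithelial barcodes, and Gzmb in 68.4% and 67.1% against 0.508% and 0.735%. Cd160, a receptor of NK and intraepithelial T cells that binds HVEM, was found in 33.7% and 32.9% of γδ cells and in 0.0424% and 0.0864% of epithelial barcodes. Without thinning its shares were 73.8% and 69.4%, so its detection moved with depth more than that of the granzymes. Xcl1 (lymphotactin, a chemokine for XCR1+ dendritic cells) was found in 15.5% and 17.8% of γδ cells, in none of the epithelial barcodes of adip fl/fl and in 0.0864% of those of adip fl/fl-Villi-Cre. Fcer1g, an adaptor that can stand in for the CD3 ζ chain in these cells, was found in 72.2% and 72.8%, Cd8a in 60.4% and 61.5%, and Itgae in 50.8% and 46.9%. Classical T helper cytokines were at or near 0, with 3 and 4 UMIs of Ifng and none of Il17a or Il22 in either library. Among transcription factors, Runx3 (which establishes the CD8 and cytotoxic program) had 611 and 573 CPM and Ikzf2 (Helios) 1099 and 1094, against at most 0.691 CPM of either in the epithelial barcodes.

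Expression was not even among γδ cells. Ranked by variance over mean after thinning among genes enriched in these cells over epithelial barcodes, Ccl5, Gzma, Xcl1 and Gzmb led in both libraries, with ratios of 23.7 and 23.4 for Ccl5, 23.9 and 21.5 for Gzma and 10.9 and 26.1 for Xcl1, against a median of 1.03 over all enriched genes in each library. Gzma fell into separate levels: 55 and 52 γδ cells had no UMI, 6 and 15 had 1 to 9, 1 and 3 had 10 to 19, and 125 and 146 had 20 or more. Xcl1 was concentrated in few cells, with the top decile of cells holding 90.6% and 89.9% of its UMIs and single cells holding 29.5% and 36.0%. γδ cells with 10 or more Gzma UMIs are called Gzma-high in what follows and the others Gzma-low, a cut chosen after the values were seen. Gzma-high cells were 126 of 187 (67.4%, 60.2 to 74.0) in adip fl/fl and 149 of 216 (69.0%, 62.4 to 75.1) in adip fl/fl-Villi-Cre, with medians of 217 and 214 Gzma UMIs. Depth did not separate them, at medians of 5084 (high) and 4979 (low) UMIs in adip fl/fl. The medians in adip fl/fl-Villi-Cre were 4686 and 4452.

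**Figure D2:**
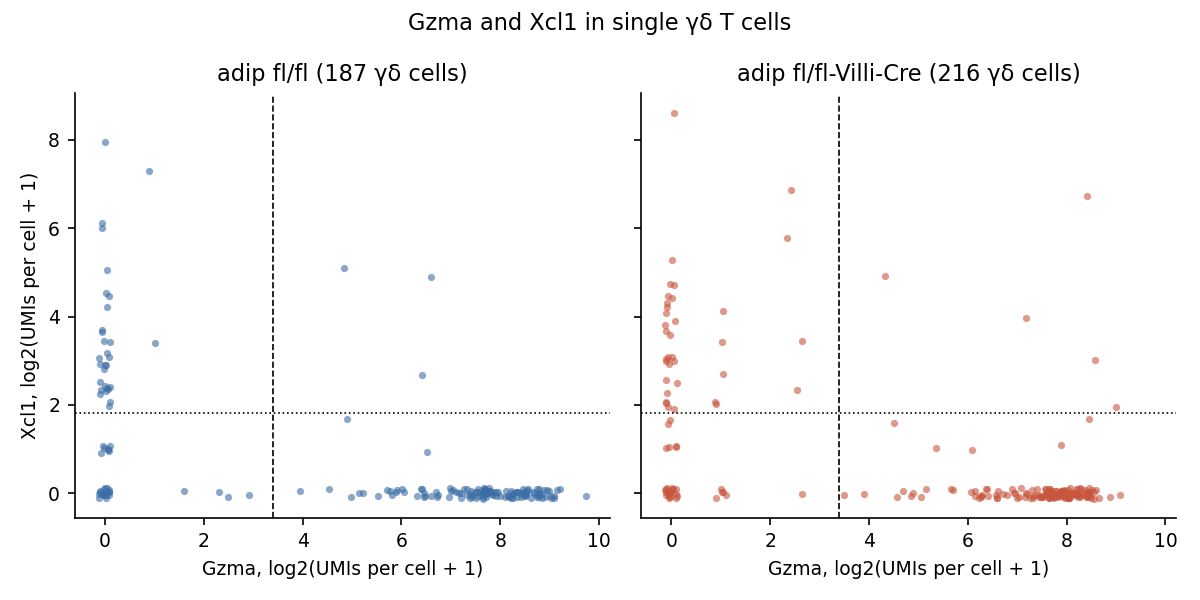
Xcl1 against Gzma in single γδ cells of each library, as log2(UMIs per cell + 1), 1 point per cell with a small random shift so that points do not cover each other. Dashed and dotted lines lie just below 10 Gzma and 3 Xcl1 UMIs. Cells lie along the axes, with only 3 and 5 past both lines.

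The splits below are descriptions, since the cells were divided by values of the same libraries and no test is possible. Of 3217 genes with at least 50 CPM in the higher group and 20 UMIs in all, 43 (1.34%) were at least 2-fold higher in Gzma-high cells in both libraries and 48 (1.49%) at least 2-fold lower. Because Gzma set the split, nothing is read from these shares. The median log2 difference over all tested genes, low over high, was 0.0983 and 0.130.

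Gzmb had 9510 CPM in Gzma-high and 336 in Gzma-low cells of adip fl/fl, and 8644 and 57.6 CPM in adip fl/fl-Villi-Cre, which was 28.3-fold (23.4 to 34.6) and 150.2-fold (102 to 232) higher. Prf1 (perforin, which lets granzymes into target cells) was 28.5-fold (4.93 to 1144) and 13.2-fold (3.47 to 112) higher, on 1 and 2 UMIs in Gzma-low cells (20.7-fold, 3.53 to 838, in adip fl/fl-Villi-Cre without barcodes of at least 1% enterocyte RNA). Ccl5 was 10.0-fold and 14.7-fold higher and Ccl4 17.7-fold and 14.9-fold, while Ccl3 had no UMI in the Gzma-low cells of adip fl/fl and was at least 12.3-fold higher there, counted against 3 UMIs. Prdm1 (Blimp-1, a repressor tied to effector and resident T cells), Tyrobp (DAP12, a signalling adaptor of NK receptors), Fasl, Lag3, Il2rb (the shared receptor chain for IL-2 and IL-15), Itga1 (CD49a, which binds collagen) and Cxcr6 were higher as well, by 2.31-fold (Itga1) to 31.8-fold (Prdm1) in adip fl/fl and by 2.44-fold (Itga1) to 6.90-fold (Prdm1) in adip fl/fl-Villi-Cre. By list, 3 of 12 tested cytotoxic effectors, 3 of 12 NK family and inhibitory receptors and 3 of 7 cytokines and chemokines were called higher in Gzma-high cells, where 1.34% of all tested genes were called, and 0, 1 and 2 were called higher in Gzma-low cells (1.49% of all). The Gzma split chose these cells, so nothing is read from the counts.

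The genes higher in Gzma-low cells were of several kinds. Tcf7 (TCF1, a factor of naive and memory-like T cells) had 14.7 CPM in Gzma-high and 317 in Gzma-low cells of adip fl/fl, which was 21.6-fold (11.3 to 46.5) higher, and 26.2-fold (13.4 to 58.6) in adip fl/fl-Villi-Cre. It was found in 70.5% and 71.6% of Gzma-low and in 4.76% and 2.68% of Gzma-high cells. Ltb (lymphotoxin β) was 24.4-fold and 32.0-fold higher in Gzma-low cells. Xcl1 was 21.6-fold (17.1 to 27.8) and 9.85-fold (8.37 to 11.7) higher, and Kit, the receptor for stem cell factor, 3.54-fold and 3.56-fold. Id3 (an inhibitor of E proteins in γδ cell development) was 5.67-fold and 3.34-fold higher, and 12.9-fold (5.75 to 34.0) and 33.2-fold (8.46 to 286) without barcodes of at least 1% enterocyte RNA, on 7 and 2 UMIs in Gzma-high cells. Ccr9 (the receptor that guides T cells to the small intestine) was 2.94-fold and 2.75-fold higher, and Cd160 had 322 CPM in Gzma-high and 966 in Gzma-low cells of adip fl/fl, and 310.3 and 847 CPM in adip fl/fl-Villi-Cre. Of the fixed lists, 2 of 15 tested immediate early genes (Fos and Fosb) were called higher in Gzma-low cells, against 1.49% of all tested genes, and 0 of 6 heat shock genes. The markers of the type thus did not mark all its cells alike: Gzma and Gzmb belonged to one group and most Xcl1 and the higher Cd160 level to the other.

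The windows around the start sites of 4 of these genes are shown, because their transcripts were split between the same cells. Each runs from 250 bases before to 50 after the start site, is taken from RefSeq (GRCm38.p6) and is written 5′ to 3′ on the strand of the gene, with capitals marking matches to the letters TGTGGT or ACCACA (bound by Runx factors) and TCACAC or GTGTGA (T-box factors). Gzma lies at chr13:113100932-113101231 (minus strand), Gzmb at chr14:56262285-56262584 (minus), Prf1 at chr10:61297586-61297885 (plus) and Xcl1 at chr1:164935473-164935772 (minus).
Gzma: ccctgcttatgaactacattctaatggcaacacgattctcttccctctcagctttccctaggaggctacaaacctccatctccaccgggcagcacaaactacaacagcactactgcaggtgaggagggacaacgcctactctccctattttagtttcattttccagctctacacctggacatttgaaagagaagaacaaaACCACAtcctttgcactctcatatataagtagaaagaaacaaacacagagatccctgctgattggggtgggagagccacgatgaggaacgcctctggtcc
Gzmb: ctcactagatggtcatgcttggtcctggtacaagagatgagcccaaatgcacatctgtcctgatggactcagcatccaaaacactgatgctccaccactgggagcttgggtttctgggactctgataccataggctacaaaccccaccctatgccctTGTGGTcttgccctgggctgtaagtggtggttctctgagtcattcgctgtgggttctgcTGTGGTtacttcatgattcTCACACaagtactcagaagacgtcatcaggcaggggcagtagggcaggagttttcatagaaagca
Prf1: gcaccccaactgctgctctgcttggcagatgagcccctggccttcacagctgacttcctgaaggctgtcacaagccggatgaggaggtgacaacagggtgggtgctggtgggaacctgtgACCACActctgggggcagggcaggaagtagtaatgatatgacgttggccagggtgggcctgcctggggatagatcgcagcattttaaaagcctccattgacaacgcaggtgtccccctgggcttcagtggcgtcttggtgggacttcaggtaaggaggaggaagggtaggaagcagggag
Xcl1: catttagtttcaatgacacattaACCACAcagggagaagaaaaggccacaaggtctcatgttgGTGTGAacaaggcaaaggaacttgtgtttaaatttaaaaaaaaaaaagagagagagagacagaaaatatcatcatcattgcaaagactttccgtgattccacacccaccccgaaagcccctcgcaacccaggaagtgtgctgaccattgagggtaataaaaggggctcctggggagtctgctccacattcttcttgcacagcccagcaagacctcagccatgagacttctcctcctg
All 4 windows hold the Runx letters, with 2 matches in Gzmb, and Gzmb and Xcl1 hold the T-box letters once each. None holds CTTTGA or TCAAAG, the letters bound by TCF1. Of 32851 promoters of this length, 16.8% hold the Runx letters, 14.5% the T-box letters and 16.0% the TCF1 letters on either strand. The 4 genes were picked by no fixed rule, and Xcl1 was higher in the other group of cells, so nothing is read from setting them beside these shares. A match is a description of the sequence and does not show that a factor binds there.

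Gzma-low cells were divided further by Xcl1. This transcript had 3 or more UMIs in 30 of 187 γδ cells of adip fl/fl (16.0%) and in 35 of 216 of adip fl/fl-Villi-Cre (16.2%) that were Gzma-low, and the remaining 31 (16.6%) and 32 (14.8%) had little of either transcript. The Xcl1 group had medians of 5692 and 5451 UMIs and the remaining group 3853 and 3645, so most cells of the last group were shallower. Its median sum of Cd3 UMIs was lower too, at 17.0 and 17.5 against 27.5 and 28 in the Xcl1 group. In adip fl/fl-Villi-Cre, however, its 3 deepest barcodes held 48.6% of its UMIs, and its 6 barcodes of at least 1% enterocyte RNA held 58.9%, against 10.4% in 2 barcodes of adip fl/fl. Of 2598 genes tested, 79 (3.04%) were at least 2-fold higher in the Xcl1 group than in the remaining Gzma-low cells in both libraries and 33 (1.27%) at least 2-fold lower. Xcl1 set this split after its values were seen, so nothing is read from these shares either.

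The Xcl1 group had the highest level of several genes. Batf3, a factor of the AP-1 family, had 178 CPM in the Xcl1 group of both libraries, against 8.79 (Gzma-high) and 37.6 (remaining) CPM in adip fl/fl and 1.24 and 9.81 CPM in adip fl/fl-Villi-Cre. Kit had 517 and 521 CPM there, Crtam, an adhesion receptor of activated lymphocytes, 102 and 126 CPM, and Cd160 1125 and 1167 CPM, in each case the highest of the 3 groups in both libraries. In other genes the Xcl1 group was near the Gzma-high cells and the remaining cells were apart. Fcer1g had 2535 CPM in Gzma-high, 2099 in the Xcl1 group and 263 in the remaining cells of adip fl/fl, and 2525, 2153 and 378 CPM in adip fl/fl-Villi-Cre. Cd8a had 1174, 1060.3 and 384 CPM in adip fl/fl and 995, 1141 and 255 CPM in adip fl/fl-Villi-Cre, and Trgc1 928, 979.6 and 474 and 869, 1219.6 and 265 CPM in the same order. Tcf7 set both Gzma-low groups apart from the Gzma-high cells, at 274 (Xcl1) and 376 (remaining) CPM in adip fl/fl and 395 and 177 CPM in adip fl/fl-Villi-Cre.

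Several T cell genes were highest in the remaining Gzma-low cells. Ms4a4b, a membrane protein of T cells, had 271 and 196 CPM there and at most 11.2 CPM in the other groups of either library. Thy1, a surface glycoprotein that many gut γδ cells lack, had 181 and 142 CPM there, against 37.7 CPM and 0 UMIs in the Xcl1 group. Il7r (the IL-7 receptor chain) had 75.2 and 49.0 CPM on 10 UMIs each, and no UMI in the Xcl1 group. Other genes of conventional T cells were at few UMIs there, with 6 and 1 of Cd28 and 2 and 1 of Cd5. Epithelial transcripts were also among the genes higher in this group, such as Reg3g at 188 and 2530.4 CPM against 86.1 and 447 CPM in the Xcl1 group. RNA of the enterocyte markers was 0.467% and 4.23% of UMIs in the remaining cells and 0.41% and 1.12% in the Xcl1 group, and the part of the lower depth in these differences was not tested. Without barcodes of at least 1% enterocyte RNA, a choice made after the data were seen, 48 genes were higher and 23 lower in the Xcl1 group, of which 40 and 12 were called with all cells. Fcer1g was then at 294 and 716 CPM in the remaining cells, Cd8a at 336 and 597, Trgc1 at 487 and 573, Tcf7 at 403 and 370, Ms4a4b at 260.2 and 382, Thy1 at 185 and 310.4 and Il7r at 83.9 and 95.5 CPM, so the levels of these genes in adip fl/fl-Villi-Cre were higher than those given above. Reg3g was then at 92.3 and 143 CPM in the remaining cells against 80.1 and 68.1 CPM in the Xcl1 group.

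**Figure D3:**
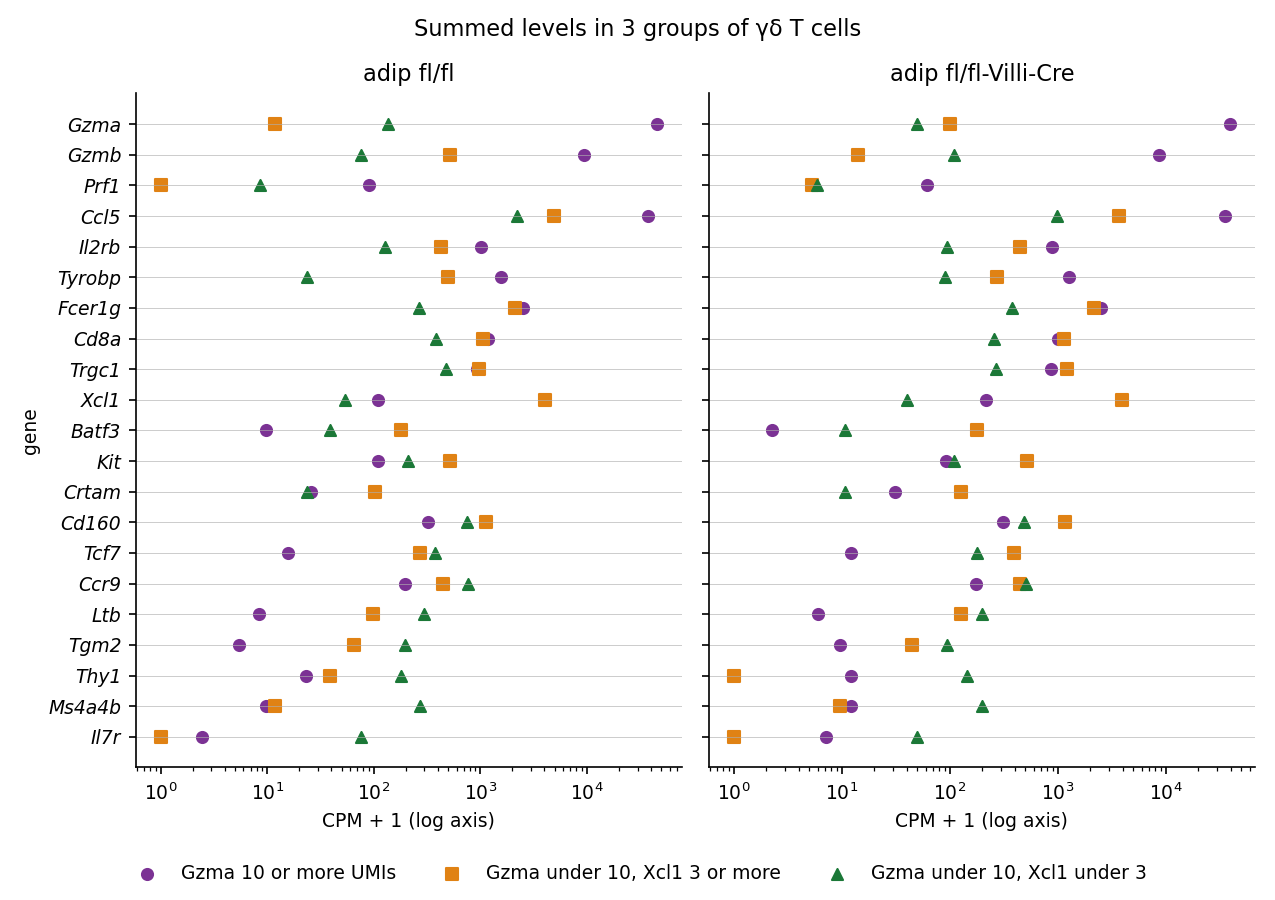
Summed level of 21 genes (y axis) as CPM + 1 on a log x axis in 3 groups of γδ cells, with 1 panel per library and 1 point per group. Effector genes at the top are highest in cells with 10 or more Gzma UMIs, Xcl1 to Cd160 in cells with 3 or more Xcl1 UMIs, and Thy1, Ms4a4b and Il7r in the remaining cells.

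The division by Gzma was also made in the αβ T cells. With the same cut, 64.4% and 60.4% of them were Gzma-high. Of the 48 genes higher in Gzma-low γδ cells, 29 were over the minimum in the αβ cells and 16 of those (55.2%) were called in the same direction in both libraries, and of the 43 higher in Gzma-high cells 16 of 31 (51.6%), with none called the opposite way. Over all 3217 genes tested in αβ cells, 40 (1.24%) were higher in Gzma-low and 41 (1.27%) in Gzma-high cells. Gzma set the split of both classes in the same libraries, and the αβ class can hold γδ cells whose Trdc was not captured. Nothing is therefore read from these shares. Fasl, Cxcr6, Ccr9 and Ccl4 were among the genes not called in αβ cells. Tcf7 was 7.95-fold and 14.5-fold higher in Gzma-low αβ cells, Ltb 8.89-fold and 4.96-fold, Cd160 2.19-fold and 2.40-fold and Xcl1 8.45-fold and 23.1-fold. Batf3, under the minimum there, had 25 and 19 UMIs in Gzma-low and 1 and 0 in Gzma-high αβ cells. Gzma-low cells with 3 or more Xcl1 UMIs were thus not confined to γδ cells, at 21 of 163 and 13 of 235 αβ cells.

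Set directly against αβ T cells, γδ cells were at least 2-fold apart in few genes. The αβ class was set by the absence of Trdc UMIs, so it can hold γδ cells whose Trdc was not captured, and how many it holds was not tested. The αβ class of adip fl/fl-Villi-Cre also carried RNA of other cell types, with B and plasma cell markers at 8419 CPM (70.7 in adip fl/fl) against 78.2 CPM in γδ cells and goblet markers at 4647 CPM (319.8) against 1729.9 CPM. Enterocyte markers were higher in the αβ class of both libraries, at 10508 and 28172 CPM against 5067 and 23070.5 CPM in γδ cells. Of the lower genes below, S100a6, Ifit1 and Reg3a were at least 2-fold higher in epithelial barcodes than in γδ cells. The part of such RNA in the differences was not tested. Of 3162 genes tested, 5 (0.158%) were at least 2-fold higher in γδ cells in both libraries and 18 (0.569%) at least 2-fold lower, with median log2 differences over all tested genes of 0.01 and 0.05. Effector genes were not among the higher ones: Gzma was 1.14-fold and 1.27-fold, Gzmb 1.31-fold and 1.28-fold, Ccl5 0.933-fold and 1.01-fold, and Cd160 1.09-fold and 1.14-fold of the αβ level. Xcl1 was 1.35-fold and 6.41-fold of it, at 832 and 881 CPM in γδ and 618 and 137 CPM in αβ cells, so the difference between the libraries lay in the αβ cells.

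The higher genes were 2 of the γ chain and 3 of other kinds. Trgv7 was 17.9-fold (6.75 to 67.3) and 23.3-fold (8.81 to 87.2) higher and Trgc1 5.27-fold (4.40 to 6.35) and 8.87-fold (7.28 to 10.9). Lig1, the DNA ligase of replication, was 2.96-fold and 3.17-fold higher, Mcm3, a subunit of the replicative helicase, 2.95-fold and 2.99-fold, and Capg, an actin-capping protein, 2.26-fold and 2.55-fold. Cells with 3 or more of the 8 cell cycle genes had been left out of both classes. Mcm2 (2.10-fold and 1.79-fold) and Mcm6 (2.00-fold and 1.77-fold), of the same helicase, were higher by less in adip fl/fl-Villi-Cre and did not pass 2-fold in both. Neither did Mcm5, a further subunit, at 2.86-fold (1.78 to 4.78) and 1.46-fold (0.901 to 2.39). Among all T cells with Trdc, 22.1% (53 of 240) and 21.5% (59 of 275) were cycling by that rule, against 18.3% (40 of 219) and 12.9% (39 of 303) of those without Trdc.

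The lower genes included that of the CD8 β chain, Il7r and Ms4a4b. Cd8b1 had 0.999 and 5.65 CPM in γδ and 111 and 226 CPM in αβ cells. Il7r was 0.135-fold and 0.121-fold of the αβ level, Ms4a4b 0.166-fold and 0.102-fold, Sh2d1a (SAP, an adaptor of SLAM receptors) 0.205-fold and 0.122-fold, Gzmk 0.128-fold and 0.239-fold, and Itga4 and Itgal, integrin chains of circulating lymphocytes, 0.351-fold and 0.186-fold and 0.363-fold and 0.171-fold. Cd5, Cd6, Cd2 and Cd28, receptors of conventional T cells, were not among the genes called lower. They were at or under 8.99 CPM in γδ cells against 30.5 to 71.2 CPM in αβ cells.

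How much of this depended on the kind of αβ cell was measured by leaving out αβ cells with a Cd8b1 UMI, a choice made after the data were seen (26 of 163 cells in adip fl/fl and 86 of 235 in adip fl/fl-Villi-Cre). The same 5 genes then stayed higher in γδ cells, while 3 of the 18 lower genes kept the call, Il7r, Ms4a4b and Reg3a. Sh2d1a (0.267-fold and 0.323-fold at the lower and higher of the 2 libraries), Ctla2a (0.37 and 0.386), Ly6a (0.111 and 0.422) and Ifit1 (0.164 and 0.394) were still past 2-fold in both and were no longer over the minimum level, and the other 11 were under 2-fold in at least 1 library, Cd8b1 by construction. Of 13 tested interferon response genes, 10 (76.9%) were below the αβ level in both libraries, against 788 (24.9%) of all 3162 genes, with a median log2 difference of -0.41 in each, but only Ifit1 passed 2-fold in both. Enterocyte markers were lower too, 17 of 21 tested in both libraries, with medians of -1.08 and -0.33. Ifit1, like Reg3a, was at least 2-fold higher in epithelial barcodes than in γδ cells. The part of epithelial RNA in these differences was not tested.

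**Figure D4:**
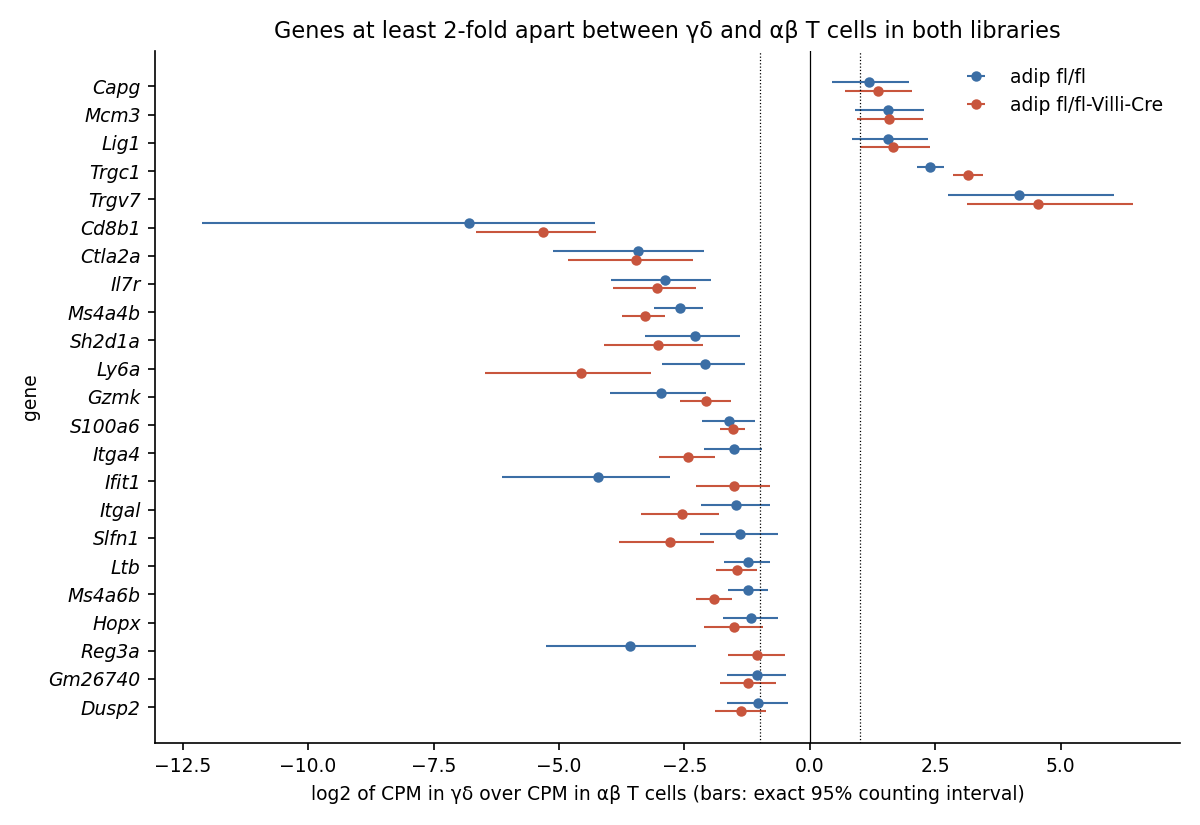
Log2 of the level in γδ over that in αβ T cells (x axis) for the 23 genes at least 2-fold apart in both libraries (y axis), 1 point per library with its exact 95% counting interval. Trgv7 and Trgc1 lie farthest to the right and Cd8b1 farthest to the left, and dotted lines mark 2-fold.

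γδ cells were a smaller share of all cells in the library of Villi-Cre mice, by a size that depended on the denominator and on the mitochondrial filter. They were 6.09% (5.27 to 7.0) of the cells passing the filters in adip fl/fl and 3.89% (3.40 to 4.43) in adip fl/fl-Villi-Cre, a ratio of 0.638 (0.522 to 0.780). Of the non-cycling T cells they were 51.1% (187 of 366) and 45.0% (216 of 480), a ratio of 0.881 (0.721 to 1.08), and of the cells with a Ptprc UMI 29.8% (183 of 615) and 29.0% (208 of 717), a ratio of 0.975 (0.795 to 1.20). The αβ T cells had a ratio of 0.797 (0.649 to 0.979) among passing cells. With all mitochondrial genes counted and all γδ cells kept, the interval of the ratio lay below 1 over passing cells. It held 1 over T cells and over leukocytes. Without barcodes with at least 2 UMIs of Trac, Trbc1 or Trbc2, the ratio over passing cells was 0.737 (0.383 to 1.44), an interval that also holds 1. When the mitochondrial share was taken from the 13 protein genes alone, 7637 and 9729 cells passed in place of 3069 and 5555, and the γδ shares were 2.46% and 2.25%, a ratio of 0.914 (0.749 to 1.12), whose interval holds 1. Which mitochondrial genes the study counted is not given in the sources used here, and the numbers of cells it kept lie between those of both definitions. The share among all passing cells therefore rests on that choice. How many lymphocytes entered each library during dissociation cannot be told apart from the genotype.

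Within γδ cells, few of the genes enriched over epithelial barcodes passed 2-fold between the libraries with all barcodes kept. Of 1198 tested genes at least 2-fold higher in γδ cells than in epithelial barcodes, 0 (0%) were at least 2-fold higher in adip fl/fl-Villi-Cre and 7 (0.584%) at least 2-fold lower, around a median log2 difference of -0.23. Gzma was 0.825-fold (0.812 to 0.838), Gzmb 0.855-fold (0.827 to 0.885), Ccl5 0.887-fold (0.872 to 0.901), Cd160 0.945-fold (0.840 to 1.06) and Xcl1 1.06-fold (0.966 to 1.16) of the adip fl/fl level. Without barcodes of at least 1% enterocyte RNA, a choice made after the data were seen, Gzma was 1.0-fold, Gzmb 1.01-fold, Ccl5 1.07-fold, Cd160 1.19-fold and Xcl1 1.32-fold, so the lower levels of the first 4 were not seen in that setting. None of the tested genes of the γ and δ chain (6), cytotoxic (13), NK family (13), chemokine (7) or cytokine receptor (10) lists passed 2-fold in either direction, nor did those of T cell receptor signalling (16), interferon response (11), heat shock (7) or glycolysis (11). Maf alone was at least 2-fold higher among 16 transcription factors (under 2-fold without the barcodes of at least 1% enterocyte RNA described below), Itgb1 among 10 adhesion genes (2.25-fold, but 0.988-fold after thinning) and Atf3 among 15 immediate early genes (8.76-fold, and 5.40-fold but under the minimum level without those barcodes). Over all tested genes 8.94% were at least 2-fold higher and 0.247% lower, so nothing is read from these list counts. The 7 lower genes were Tmem273 (0.332-fold, 0.190 to 0.563), Capn3 (a calpain protease, 0.370-fold, 0.268 to 0.506), Atp2b4 (a calcium pump, 0.443-fold), Ide (insulin-degrading enzyme, 0.443-fold), Tnfrsf18 (GITR, a costimulatory receptor, 0.460-fold), Mcm5 (0.470-fold) and Nin (0.471-fold). Without barcodes of at least 1% enterocyte RNA, Tmem273, Capn3 and Ide kept the call, and Atp2b4 (0.528-fold), Tnfrsf18 (0.568-fold), Mcm5 (0.574-fold) and Nin (0.565-fold) lost it. Some of these genes also had lower levels in other cells of the Villi-Cre library. Capn3 had 80.3 CPM in the αβ cells of adip fl/fl and 45.0 in those of adip fl/fl-Villi-Cre, and Tmem273 34.7 and 16.1 CPM. Ide had 157 and 52.6 CPM in αβ cells and 52.2 and 28.1 CPM in epithelial barcodes.

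Receptors of adiponectin were present at low levels and did not pass 2-fold. Adipor1 was found in 28.9% and 30.1% of γδ cells without thinning, at 68.9 and 76.6 CPM, a ratio of 1.11 (0.807 to 1.54). Adipor2 was found in 28.9% and 22.7%, at 72.9 and 106 CPM, a ratio of 1.45 (1.08 to 1.96). Adipor1 was 0.638-fold and Adipor2 0.215-fold of the level of the epithelial barcodes in adip fl/fl, and after thinning both were found in a smaller share of γδ cells (5.88% and 7.49% in adip fl/fl) than of epithelial barcodes (8.26% and 24.2%), and no cell type that lacks these genes was at hand to give their background. Enterocyte marker RNA in γδ barcodes was 6.03% and 28.4% of its level in epithelial barcodes, and the part of epithelial RNA in the receptor values was not tested. None of the 5 tested genes of the adiponectin receptor and adaptor list passed 2-fold. Over all tested genes 8.94% were at least 2-fold higher and 0.247% lower, so nothing is read from this count. Among targets of the aryl hydrocarbon receptor, which sustains intraepithelial lymphocytes, Tiparp was 1.37-fold (1.10 to 1.73) and Ahrr 1.52-fold (0.927 to 2.55) of the adip fl/fl level, and Ahr itself 0.621-fold (0.436 to 0.881). Of the 3 tested genes of the aryl hydrocarbon receptor list, 0 passed 2-fold, around a median log2 difference of -0.24.

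Over all 3647 tested genes, 326 (8.94%) were at least 2-fold higher in adip fl/fl-Villi-Cre γδ barcodes and 9 (0.247%) at least 2-fold lower, among them the 7 above and Mir6236 (0.397-fold), which had 649 and 271 CPM in αβ cells and 531 and 239 CPM in epithelial barcodes as well. Of the 326, 309 (94.8%) were at least 2-fold higher in epithelial barcodes than in γδ cells, against 465 (12.8%) of all tested genes. The 326 included 23 of 23 tested enterocyte markers, with a median log2 difference of 2.15, and 5 of 5 goblet markers (2.89). The largest difference was that of Mt1, a metallothionein, with 21 UMIs in adip fl/fl and 887 in adip fl/fl-Villi-Cre (34.1-fold, 22.2 to 55.4), which in the epithelial barcodes had 536 and 2385 CPM. Slc2a2 (the glucose carrier GLUT2 of enterocytes) was 22.6-fold (7.47 to 112) and Lgals2 (galectin 2) 21.3-fold (12.5 to 39.3) higher.

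This epithelial RNA was carried by few barcodes. The 24 enterocyte markers took 0.507% of γδ UMIs in adip fl/fl and 2.31% in adip fl/fl-Villi-Cre, a 4.55-fold difference, against 8.40% and 8.12% in the epithelial barcodes, and Apoa1 was the most abundant of them. The median γδ barcode had 0.254% and 0.319%. Barcodes with 1% or more were 11 of 187 in adip fl/fl and 32 of 216 in adip fl/fl-Villi-Cre, and held 55.2% and 91.3% of these UMIs. They were deeper, with medians of 7869 and 7726 UMIs against 4964 and 4344, and had median mitochondrial shares of 12.2% and 9.80%. Without them, a choice made after the data were seen, 23 genes were higher and 8 lower in adip fl/fl-Villi-Cre, 14 and 5 of them also called with all cells. Mt1 was then 5.61-fold and Muc2, the goblet cell mucin, 3.34-fold higher, and 6 genes enriched in γδ cells also passed, Gpr34 (2.07-fold), Ahrr (2.02-fold), Wdr89 (2.29-fold), Nde1 (2.20-fold), Diablo (2.08-fold) and A530083M17Rik (2.65-fold). Cd24a, 20.0-fold higher over all γδ cells, was 0.506-fold without the deepest adip fl/fl-Villi-Cre barcode. Doublets of an epithelial and a T cell were not removed, and their part in the other differences was not tested.

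**Figure D5:**
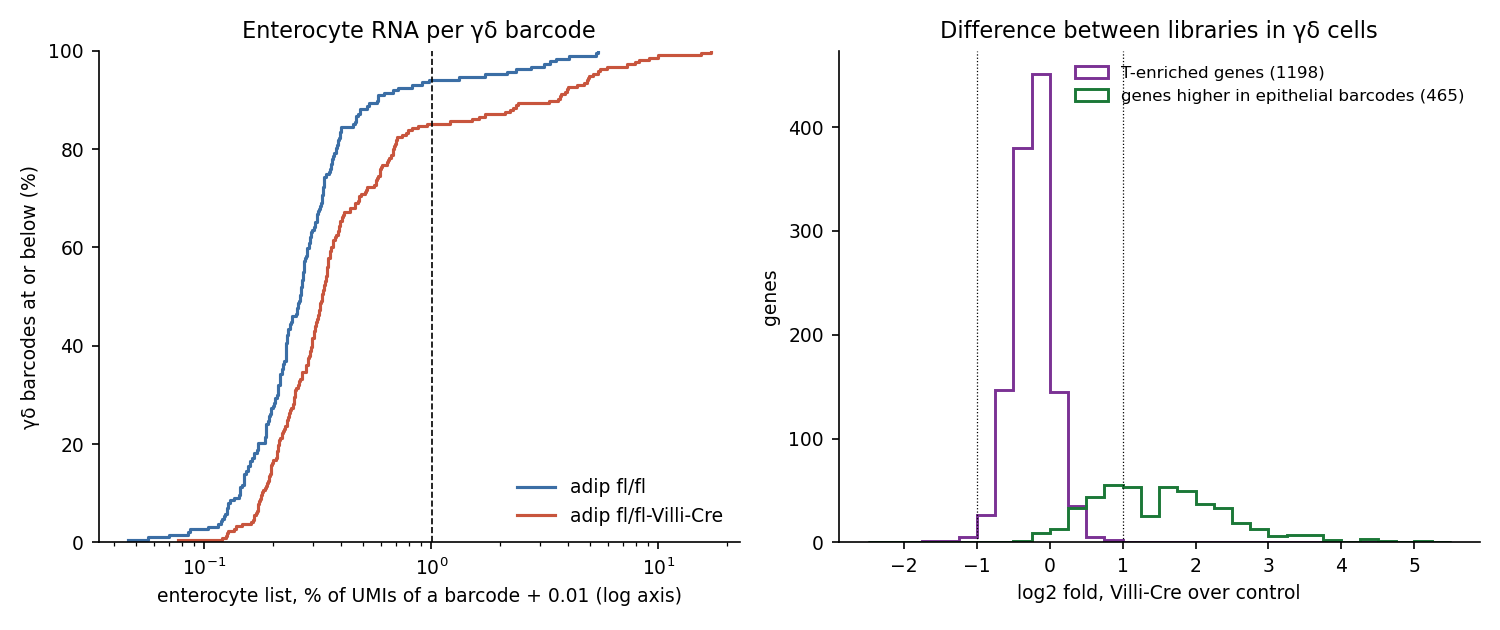
Left, cumulative share of γδ barcodes (y axis, %) by the share of their UMIs from the enterocyte markers (x axis, % + 0.01, log scale), 1 line per library, with a dashed line at 1%. Right, number of genes (y axis) by log2 fold in adip fl/fl-Villi-Cre over adip fl/fl γδ cells (x axis) for 1198 genes higher in γδ cells and 465 higher in epithelial barcodes: the first lie around a median of -0.23 and the second around 1.49.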

How the data were processed

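Per the labels, the authors used bcl2fastq 5.0.1 for base calls and Cell Ranger, against mm10, for UMI tables. The methods and the header of the deposited tables give different Cell Ranger releases, 7.1.0 in the header. The deposited values are raw counts of UMIs (55357 genes, 9791 and 11838 barcodes, 42150623 and 63370798 UMIs), without normalization. The build and γ chain names were matched to RefSeq (GRCm38.p6) by gene identifier and synonym.

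From these counts the γδ cells were selected by the rule given with the results. αβ T cells and epithelial barcodes were selected likewise. The members, the 24 gene lists (written from general knowledge) and the alternatives were chosen with earlier results of these data known. Genes named are those of the lists, the 10 largest differences in each direction between genotypes (over all tested genes and over those enriched in γδ cells) and against αβ cells, the 15 highest over epithelial barcodes, the 10 most variable, and genes chosen after their values were seen (those of the splits by Gzma and Xcl1, and of the counts without barcodes rich in enterocyte RNA).

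Levels were obtained by adding the UMIs of all cells of a class, as CPM. With 1 library per genotype there is no test: a gene is called at 2-fold, with at least 50 CPM in the higher group and 20 UMIs in all. Intervals are exact (Clopper-Pearson for shares, conditional binomial for folds, Poisson for levels) at 95% and cover counting error only. Where a group had 0 UMIs, 3 were put in its place and the fold is a lower bound. Cells were thinned to 1000 UMIs for shares of cells with a UMI. No doublet caller was run and doublets were not removed. Some genes are not reported here. The software was scipy 1.17.1, numpy 2.4.6, matplotlib 3.10.9 and pandas 2.3.3 under Python 3.11.15.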

Additional observations from a re-analysis of the deposited data

Results flagged for a closer look

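Barcodes outside the main measurement met the γδ rule apart from the mitochondrial limit: 1 in adip fl/fl and 3 in adip fl/fl-Villi-Cre carried Cd3 and Trdc UMIs with 25% or more mitochondrial UMIs. They are given because they hold a signal in barcodes that the main comparisons left out. With mitochondrial UMIs of protein genes alone, adip fl/fl had 188 γδ cells and adip fl/fl-Villi-Cre 219, in place of 187 and 216. The γδ shares of that setting thus included barcodes over the main limit.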

How the results depend on the processing

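No paired analysis was possible because each genotype has 1 library, and there is no replicate to leave out. The ratio of the γδ share was 0.914 with mitochondrial UMIs of the 13 protein genes alone and 0.975 with Ptprc+ barcodes as denominator. At a mitochondrial limit of 10% the shares themselves rose to 14.2% and 9.73%, with a ratio of 0.683. Without barcodes with at least 2 UMIs of Trac, Trbc1 or Trbc2 the ratio was 0.737 (0.383 to 1.44). Between genotypes, higher genes numbered 0 among T-enriched genes, 917 without a minimum CPM, 99 by the mean of single-cell CPM, 152 after thinning, 41 without the tenth of barcodes richest in enterocyte RNA and the 5% deepest, and 23 without barcodes of at least 1% enterocyte RNA. Lower genes numbered 219 without a minimum, 91 after thinning and 17 with at least 2 Trdc UMIs. Against αβ cells, 65 genes were higher and 112 lower without a minimum, 21 and 30 after thinning, and 3 lower without Cd8b1+ cells. Only T-enriched genes left 29 higher in Gzma-low cells. The enterocyte ratio was 4.37 without Apoa1, Fabp1 and Reg3b and 1.26 by median. Detection of Cd160 was 26.7%, 51.9% and 73.8% (adip fl/fl) and 22.2%, 51.5% and 69.4% (adip fl/fl-Villi-Cre) at 500 UMIs, 2000 UMIs and without thinning, and of Xcl1 22.5% in adip fl/fl without thinning. Among genes past 2-fold in γδ cells, genotype folds changed direction for Itgb1 (0.988, thinned), Cd24a (0.903 without the richest and deepest barcodes, 0.506 without the deepest), and, without barcodes of at least 1% enterocyte RNA, Mgst1 (0.809), Alpi (0.944), Lct (0.687) and Rbp2 (0.856). In that last setting, folds under 2 also passed to the other side of 1 for Gzmb (1.01), Ccl5 (1.07) and Cd160 (1.19). The settings without Cd8b1+ cells, without barcodes of at least 1% enterocyte RNA and without the deepest barcode, and the T-enriched count of Gzma-low cells, were chosen after seeing the data. The cause was not tested, apart from fewer cells or other minimum levels by construction. The other alternatives for these counts and shares stayed within the limits set. Genotype folds of single named or listed genes were less stable. Apart from those that changed direction, 139 of 240 left their counting interval after thinning and 133 of 242 without barcodes of at least 1% enterocyte RNA. Without the richest and deepest barcodes 124 of 242 did so, and by the mean of single-cell CPM 115 of 242.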
